A study of Mus musculus with 2 samples.

Results

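Fkbp5, Fkbp4, Fkbp1a, Fkbp1b, Fkbp2, Fkbp8 and Fkbp10 encode FK506-binding immunophilins, and the open chromatin at these 7 genes is described here. They were taken by name from the 21911 protein-coding genes of GENCODE mouse release M21, and all 7 were found there. Open chromatin was mapped by DNase-seq, which sequences the ends of fragments that the nuclease DNase I cuts out of accessible DNA. The cells were MN1, an immortalized mouse line of strain B6NCrl, for which the labels state no tissue and give the developmental stage as unknown. Both libraries, biological replicates 1 and 2, came from cells given 10 nM methyltrienolone, a synthetic androgen. They form 1 group, and no untreated cells were analysed here, so every value is a level in treated cells and none is a response to the androgen. The labels give each replicate its own biosample and do not say whether these were separate cultures.

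Immunophilins of the FKBP family bind the drugs FK506 or rapamycin and, in most members, catalyse the turning of proline bonds in proteins. The protein of Fkbp5, FKBP51, and that of Fkbp4, FKBP52, sit as cochaperones in the HSP90 complex that holds steroid receptors ready for hormone. FKBP51 lowers hormone binding by the glucocorticoid receptor, and glucocorticoids, androgens and progestins raise Fkbp5 transcription in many cell types, which closes a feedback loop. The steroid receptors do this at androgen or glucocorticoid response elements, palindromes of AGAACA and TGTTCT 3 bases apart, here called AREs, and in human cells such elements in FKBP5 introns are well described.

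Each library came with a list of 150 bp peaks, 189648 of them analysed in replicate 1 and 170745 in replicate 2. Each peak carries the authors' score, a whole number from 1 to 150, with a median of 53 in replicate 1 and 51 in replicate 2. What the score measures is not stated in any source used here. Scores were used to rank peaks within a list, and the percentile of a score is its rank within its own list. Where a peak of each replicate touched the same base, both were joined, which gave 127807 shared regions. A promoter is all sequence within 1 kb of an annotated transcription start site (TSS), and the score of a promoter is that of its highest peak in that library. Each library also has a list of hotspots, wider stretches of enriched cutting with a −log10 q-value each. The numbers of reads are unknown, so the lack of a peak cannot be read as closed chromatin.

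Of the shared regions within 100 kb of Fkbp5, 4 held an ARE with up to 2 mismatches in its 12 defined letters, counted in the 150 bp around the centre. These 4 stretches are shown because they hold sequence matches to the receptor element in open chromatin in or near the gene, with the elements in capitals. Receptor binding was not measured. All are on mm10 (GRCm38) and read 5′ to 3′ on the minus strand, the strand from which Fkbp5 is transcribed.
Fkbp5 intron 8, chr17:28420236-28420385: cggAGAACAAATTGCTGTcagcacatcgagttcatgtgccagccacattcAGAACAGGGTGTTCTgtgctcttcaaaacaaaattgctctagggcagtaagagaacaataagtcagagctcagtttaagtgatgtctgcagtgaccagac
Fkbp5 intron 1, chr17:28513806-28513955: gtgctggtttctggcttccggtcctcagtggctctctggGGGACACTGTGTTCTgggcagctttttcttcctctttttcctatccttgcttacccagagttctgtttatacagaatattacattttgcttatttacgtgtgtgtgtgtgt
Upstream of Fkbp5, chr17:28522056-28522205: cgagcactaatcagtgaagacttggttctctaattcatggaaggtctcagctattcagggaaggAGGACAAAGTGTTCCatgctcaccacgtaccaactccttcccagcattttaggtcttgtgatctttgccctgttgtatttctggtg
Upstream of Fkbp5, chr17:28523126-28523275: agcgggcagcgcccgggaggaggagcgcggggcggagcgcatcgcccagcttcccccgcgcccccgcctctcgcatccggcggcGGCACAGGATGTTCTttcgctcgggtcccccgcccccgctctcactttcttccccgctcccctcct

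The stretch chr17:28420236-28420385 holds the complete palindrome at chr17:28420321-28420335 and another element at chr17:28420368-28420382, 32 bases from it. Counting from 1 at the 5′ end of the palindrome, that other element differs from it by T12C and C14G. The stretches that start at 28513806 (A1G and A3G), 28522056 (A3G and T15C) and 28523126 (A1G and A3C) hold 1 element each. The gene body has 1 more complete palindrome, at chr17:28442419-28442433 in intron 4, which lay in no peak and no hotspot of either replicate. It is shown for contrast, again with the element in capitals.
Fkbp5 intron 4, chr17:28442351-28442500: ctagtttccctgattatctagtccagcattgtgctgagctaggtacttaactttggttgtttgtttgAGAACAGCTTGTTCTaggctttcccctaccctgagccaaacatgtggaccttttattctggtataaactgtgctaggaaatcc

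Promoter sequence is shown for the FKBP genes with the highest and the lowest promoter score, Fkbp5 and Fkbp1b, from the RefSeq promoter table (GRCm38.p6), cut at the TSS. The highest shared region within the promoter of the first Fkbp5 TSS is shown beside them, read from the genome. The Fkbp5 entry is that of an internal start of the gene, Fkbp5-201. Capitals mark GGGCGG or its complement CCGCCC, the motif of SP and KLF factors, CCAAT or ATTGG, that of NFY, CACGTG, an E-box, TGANTCA, that of AP-1, and AGAACA or TGTTCT, one arm of the ARE.
Fkbp5 promoter, chr17:28486150-28486399: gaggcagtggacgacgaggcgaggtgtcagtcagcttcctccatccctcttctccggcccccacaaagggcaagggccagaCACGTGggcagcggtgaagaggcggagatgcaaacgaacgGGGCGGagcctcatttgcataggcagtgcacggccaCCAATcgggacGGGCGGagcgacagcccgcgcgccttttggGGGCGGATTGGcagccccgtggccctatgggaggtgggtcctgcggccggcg
Fkbp1b promoter, chr12:4841592-4841823: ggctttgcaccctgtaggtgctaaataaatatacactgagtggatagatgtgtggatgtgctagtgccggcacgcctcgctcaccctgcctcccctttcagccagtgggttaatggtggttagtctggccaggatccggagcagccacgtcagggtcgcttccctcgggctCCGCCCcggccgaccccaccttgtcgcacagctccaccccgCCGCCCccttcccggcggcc
Upstream Fkbp5 peak, chr17:28518096-28518285: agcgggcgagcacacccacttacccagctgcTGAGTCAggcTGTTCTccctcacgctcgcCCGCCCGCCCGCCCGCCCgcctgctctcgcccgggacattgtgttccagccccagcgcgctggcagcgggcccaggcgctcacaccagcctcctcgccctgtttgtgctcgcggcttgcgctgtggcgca

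All 7 FKBP genes had a shared region at the promoter, against 59.5% of protein-coding genes (13037 of 21911, 95% Wilson interval 58.8% to 60.1%). Among genes with a promoter peak, the percentiles of their promoter scores ran from 28.7 to 87.2 in replicate 1 and from 27.1 to 83.4 in replicate 2. The Fkbp5 promoter scored 147 in replicate 1 and 140 in replicate 2, at percentiles 87.2 and 83.4 of the genes with a promoter peak. In both replicates it was the highest of the 7.

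**Figure D1:**
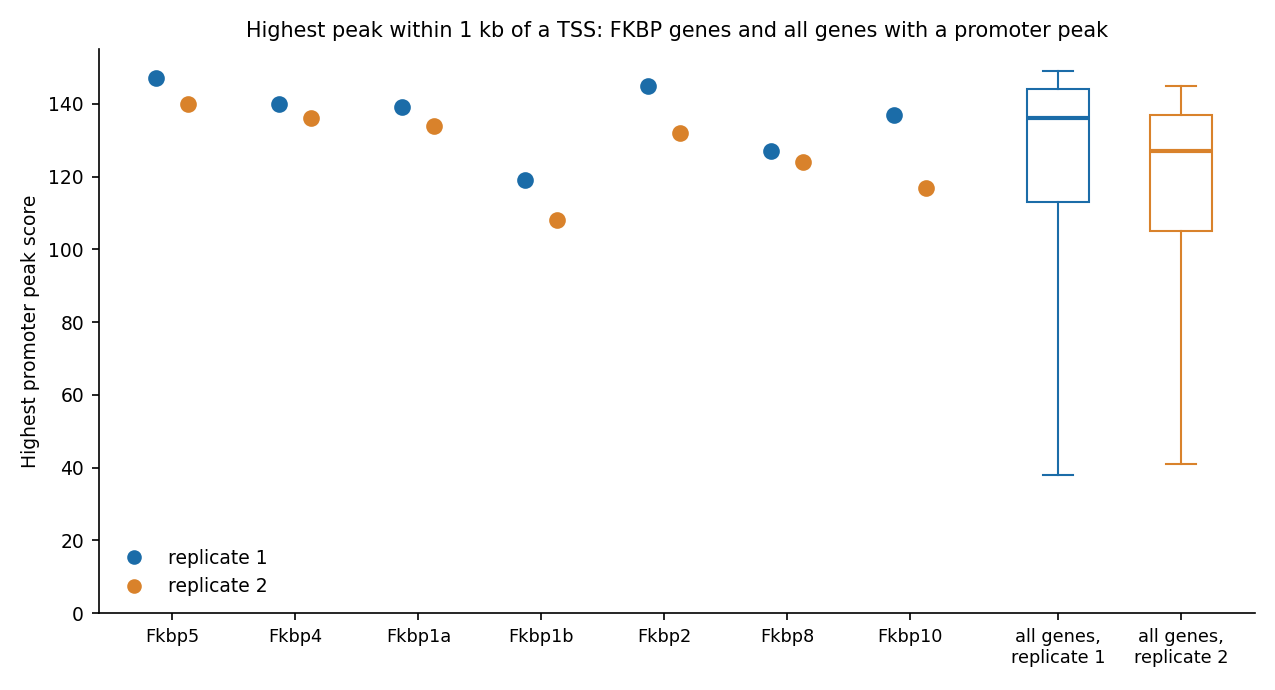
Authors' score of the highest peak within 1 kb of a TSS for each FKBP gene (points, left) and for all protein-coding genes with a promoter peak (boxes, right; line, median; box, middle 50%; whiskers, 5th to 95th percentile), by replicate. Fkbp5 (147 and 140) is the highest and Fkbp1b (119 and 108) the lowest of the 7.

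Fkbp2, which encodes a small immunophilin of the endoplasmic reticulum, followed with 145 and 132 (percentiles 78.4 and 60.9). Fkbp4 scored 140 and 136 (61.0 and 71.5). Fkbp1a, whose protein FKBP12 is the main target of FK506 and rapamycin, scored 139 and 134 (58.1 and 66.0). The percentiles of these 3 genes overlapped between the replicates, so their order is not resolved.

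Below them, Fkbp10 scored 137 and 117 (53.2 and 35.2) and Fkbp8, which encodes an immunophilin of the outer mitochondrial membrane that binds BCL2, scored 127 and 124 (36.3 and 44.4). Their percentiles overlapped each other and none of the 4 genes above. Fkbp1b, whose protein FKBP12.6 binds the cardiac ryanodine receptor, had 119 and 108 (28.7 and 27.1) and was the lowest of the 7 in both replicates. With a promoter window of 2.5 kb in place of 1 kb, its mean percentile was 88.7 in place of 27.9. The wider window takes in chr12:4843236-4843425 (146 and 144), 1740 bp upstream of Fkbp1b and centred 3 bp from the TSS of its neighbour Wdcp. The median over genes with a shared promoter region was 137 in replicate 1 and 128 in replicate 2. All 14 of these highest promoter peaks lay in hotspots with the highest −log10 q-value that the authors wrote, 100. That ceiling was reached by 46.9% of all hotspots in replicate 1 and 44.7% in replicate 2.

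The highest Fkbp5 peak was not at the first TSS. Fkbp5 (ENSMUSG00000024222.17) runs on the minus strand of chr17:28399094-28517527, over 118434 bp, with 14 annotated TSSs. The peak of 147 and 140 was centred 42 bp upstream of the TSS of Fkbp5-201 (28486149) in replicate 1 and 22 bp upstream in replicate 2. That start lies within intron 4 of Fkbp5-202, the coding transcript that starts farthest upstream, and its shared region (chr17:28486096-28486265) was centred 31346 bp downstream of the first TSS. The promoter stretch printed for Fkbp5 is that of this internal start, with 68.0% G and C, 3 GGGCGG motifs, 2 CCAAT motifs and 1 E-box.

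At the first TSSs, of Fkbp5-207, Fkbp5-202 and Fkbp5-215 (28517514 to 28517527), the chromatin was open on the upstream side. The shared region centred 234 bp upstream scored 104 and 98, that 664 bp upstream scored 131 and 137 and that 1064 bp upstream scored 90 and 76. The region nearest downstream, 416 bp into the gene, scored only 33 and 34. The stretch of 131 and 137, printed above, holds an AP-1 motif, 1 arm of the ARE and a run of 4 overlapping CCGCCC motifs.

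The coding transcript Fkbp5-214 starts near Fkbp5-201 (28486093), and the same peak of 147 and 140 was centred 98 bp upstream of it in replicate 1 and 78 bp upstream in replicate 2. The other annotated starts had lower peaks or none. The TSS of Fkbp5-203, a noncoding transcript, had 76 and 78, at 82 and 62 bp upstream. Those of Fkbp5-211 and Fkbp5-212, also noncoding, had 34 and 46, at least 604 bp away. The TSS of the coding transcript Fkbp5-209 had a peak in replicate 1 only, of 58, centred 914 bp upstream. No peak lay within 1 kb of the TSSs of Fkbp5-205, Fkbp5-208, Fkbp5-210 and Fkbp5-213 (28441010 to 28441722), or of Fkbp5-204.

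**Figure D2:**
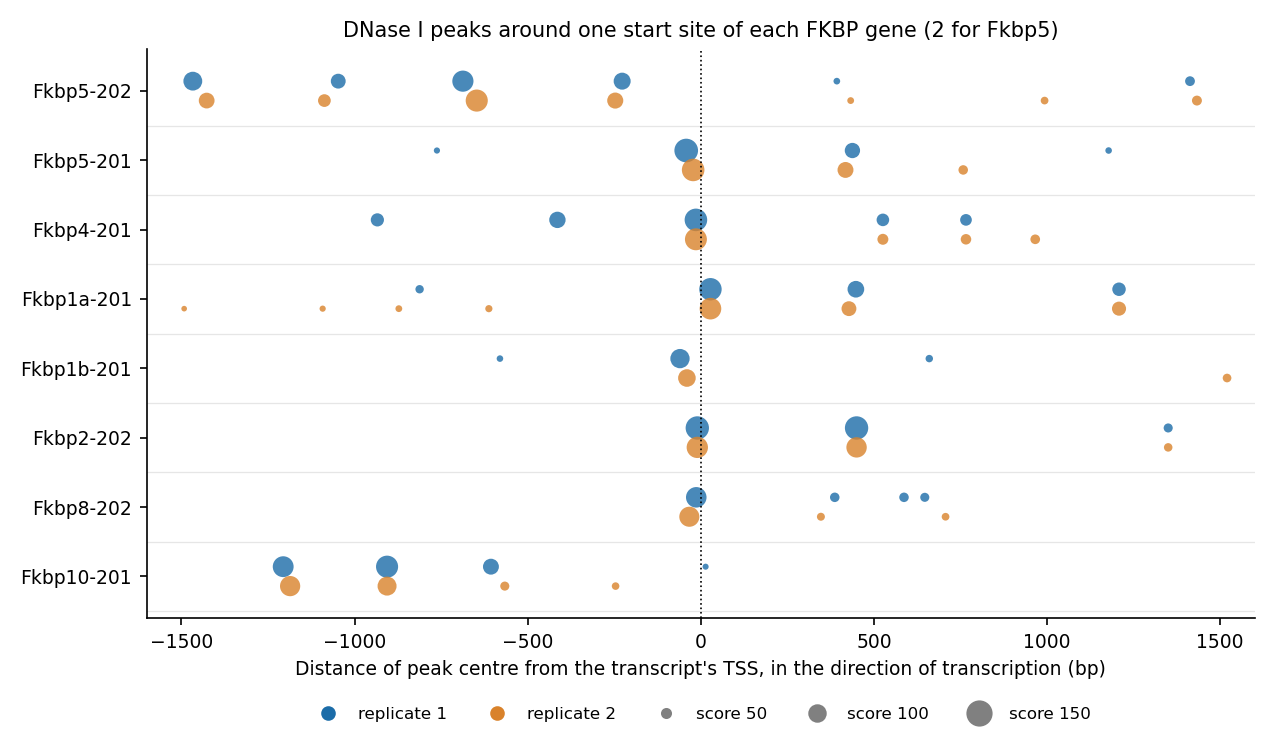
Peaks within 1500 bp of 1 start site of each FKBP gene, with 2 starts for Fkbp5, by distance from the TSS (bp). Point area rises with the authors' score, and each replicate has its own line. Strong peaks sit at the TSS in Fkbp5-201, Fkbp4, Fkbp1a, Fkbp1b, Fkbp2 and Fkbp8, and on the upstream side in Fkbp5-202 and Fkbp10.

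Shared regions were spread through the Fkbp5 introns. The gene body was overlapped by 27 shared regions, 2.28 per 10 kb, at percentile 79.1 of protein-coding genes. Of all protein-coding genes 66.8% had any, with a median of 0.744 per 10 kb. With only the stronger 50% of peaks in each list the count was 16. Of the 2076 genes within 1.5 times its length, 97.5% had as many or fewer, and their median was 7. Hotspots covered 10.3% of the body in replicate 1 and 9.86% in replicate 2. Replicate 1 had 33 peaks in the body and replicate 2 had 30. Per 10 kb, Fkbp2 (10.9), Fkbp4 (5.59), Fkbp8 (3.94) and Fkbp1b (2.38) had more shared regions than Fkbp5. Fkbp1a (2.08) and Fkbp10 (0) had fewer.

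**Figure D3:**
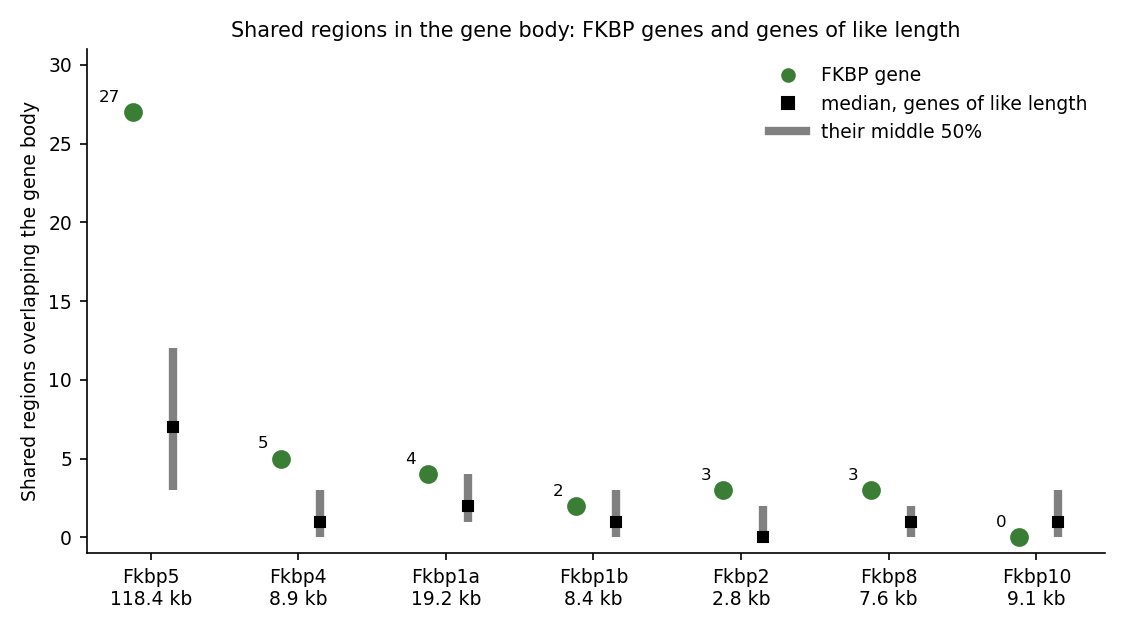
Number of shared regions overlapping the body of each FKBP gene (green) beside the median (black) and middle 50% (grey bar) of protein-coding genes within 1.5 times its length. Fkbp5 has 27 against a median of 7, and Fkbp10 has 0 against a median of 1.

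Intron 1, of 9925 bp, had 5 shared regions. The strongest, chr17:28512756-28512925, was centred 4686 bp into the gene and scored 136 in both replicates, at percentiles 95.2 and 97.7. It holds 1 arm of the ARE and has no annotated TSS within 1 kb. Next to it lay the region with the intron 1 ARE, chr17:28513776-28513985, which scored 40 in replicate 1 and 90 in replicate 2. Introns 2 and 3 had 1 region each, of 35 and 36 and of 44 and 66.

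Intron 4, the longest at 46851 bp, had 9 shared regions, among them the internal promoter and its neighbour 372 bp downstream of Fkbp5-214, which scored 93 and 97. Apart from these, the highest was chr17:28447936-28448105 with 119 and 98, which holds an AP-1 motif. The region chr17:28463916-28464105 scored 97 and 74 and also holds an AP-1 motif. The lowest in replicate 1 was chr17:28463116-28463265 with 26 and 40, and the lowest in replicate 2 was chr17:28450076-28450285 with 52 and 33.

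The widest stretch of the gene without a shared region ran for 19320 bp, between centres 69506 and 88826 bp from the first TSS. It spans introns 5 and 6, the starts near 28441010, and the complete palindrome without a peak, which was 5595 bp from the nearest shared region's centre. Introns 5, 6, 10, 12 and 13 had no shared region.

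Towards the 3′ end, shared regions returned. Intron 7 had the region of Fkbp5-203. Intron 8 had 5, of which the highest was chr17:28424436-28424625 with 116 and 109. The region with the complete palindrome, chr17:28420236-28420385, scored 93 and 108, and neighbours on either side scored 78 and 66 (chr17:28419856-28420005) and 84 and 87 (chr17:28420536-28420725). Intron 9 had 2 regions and intron 11 had 3, the strongest of which was chr17:28407536-28407685 with 107 and 106. Within the gene body, 5 of the 22 regions outside promoters held an AP-1 motif, which 17.1% of all shared regions more than 1 kb from any TSS held. None of the 22 held the CTCF motif, found in 9.84% of those regions. Of the 50 flanking regions 5 did, and all 5 lay more than 1 kb from any TSS, as the body regions do. The 50 as a whole are an unlike set, because 22 of them lay within 1 kb of a TSS. In that class 4.36% of all shared regions held the motif, and none of these flanking regions did. Whether body and flank differ was not tested.

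**Figure D4:**
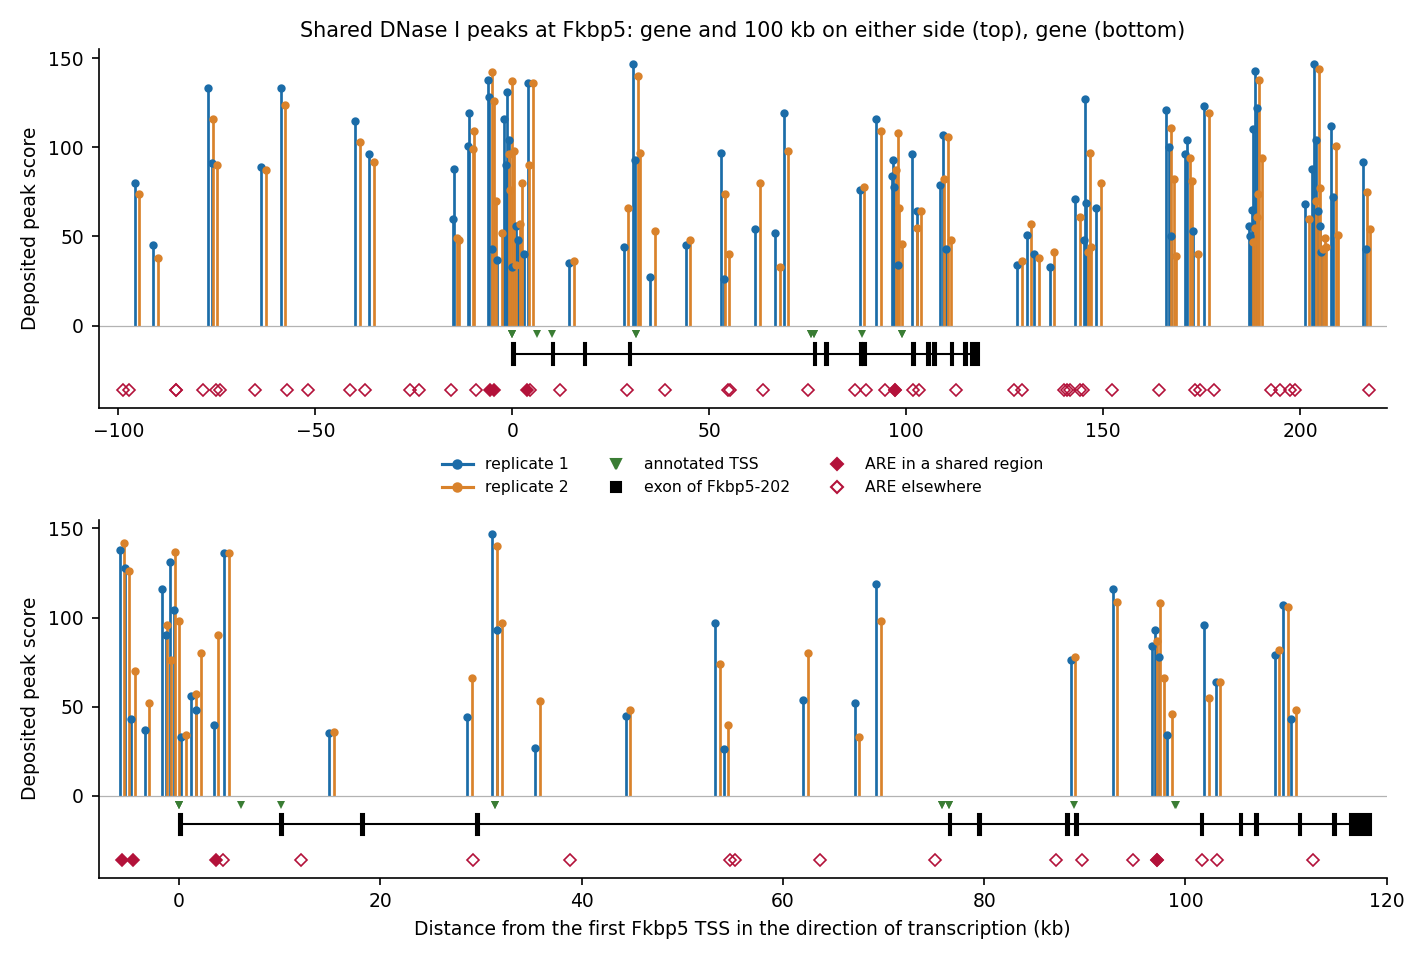
Authors' score of every shared region near Fkbp5 in replicate 1 (blue) and replicate 2 (orange, drawn beside it), by distance from the first TSS (kb), for the gene with 100 kb on either side and for the gene alone. Triangles mark annotated TSSs, boxes exons of Fkbp5-202, and diamonds AREs, filled where they lie in a shared region. The tallest lines in the gene stand at the internal start, 31346 bp in.

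Most AREs at Fkbp5 lay outside shared regions. The share for all elements of the genome with up to 2 mismatches was not counted, so whether this is low was not tested. The gene body holds 17 elements with up to 2 mismatches, and 3 of them, in 2 regions, lay in shared regions, while 5 lay in hotspots of each replicate. Over the gene and 100 kb on either side there are 52 elements, of which 5 lay in shared regions. Peaks held 5 of the 52 in replicate 1 and 8 in replicate 2, and hotspots held 8 and 12. The 3 elements with a peak in replicate 2 only were in Tead3 introns, at peaks of 36 and 26, and in an intron of Lhfpl5, at a peak of 63. The Lhfpl5 element has 1 mismatch.

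Away from TSSs, the share of Fkbp5 regions with an ARE was near that of the whole genome. Of the 50 shared regions around Fkbp5 that lay more than 1 kb from any TSS, 2 held an ARE (4.0%), against 3.45% of all such regions (3094 of 89587, Wilson interval 3.34% to 3.58%). Around the other 6 genes it was 5 of 138 (3.62%). The other 2 regions with an ARE at Fkbp5 lay within 1 kb of noncoding starts upstream of the gene. They were among 22 flanking regions within 1 kb of a TSS, and none of the 8 promoter regions of Fkbp5 held an ARE. Of all shared regions within 1 kb of any TSS, 1.11% (424 of 38220) held one, so near TSSs the share at Fkbp5 was higher, on 2 regions only. The total of 4 was 7 in replicate 2 alone, 4 in replicate 1 alone, 2 with the stronger 50% of peaks and 1 with up to 1 mismatch.

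A minority of complete palindromes lay in shared regions. The main chromosomes hold 639 complete palindromes, of which 90 (14.1%, Wilson interval 11.6% to 17.0%) lay inside a shared region. Complete palindromes occur in the body of 279 protein-coding genes, and 8 of these genes, Fkbp5 among them, have at least 2. The regions of these 90 had a median score of 49 in replicate 1 and 58 in replicate 2. With 93 and 108, the Fkbp5 region was at or above 84.4% of them in replicate 1 and 91.1% in replicate 2.

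Regions with an ARE at Fkbp5 ranked higher in replicate 2 than in replicate 1. The intron 1 region lay at percentile 34.7 of the list of replicate 1 and 81.1 of that of replicate 2, a difference of 46.4 points, above 99.9% of shared regions. The palindrome region differed by 11.1 points (78.2 and 89.3). The upstream region chr17:28522036-28522225 scored 43 and 70 (percentiles 38.8 and 68.1), and chr17:28523116-28523285 scored 138 and 142 (95.9 and 99.2).

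The same direction held for most Fkbp5 sites, with or without an ARE. Of the 30 regions of its promoters and body, 23 had the higher percentile in replicate 2, with a median difference of 4.19 points. Over all shared regions the share was 42.9% and the median difference was −1.27 points. Among all regions more than 1 kb from any TSS with an ARE the share was 73.7%, and among the 90 with a complete palindrome it was 88.9%. Of the 50 regions in the Fkbp5 flanks, 22 were higher in replicate 2. Replicate 1 is labelled with 2 instruments, HiSeq 2500 and NextSeq 500, while the labels of replicate 2 name none, so the replicate and its sequencing cannot be told apart.

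**Figure D5:**
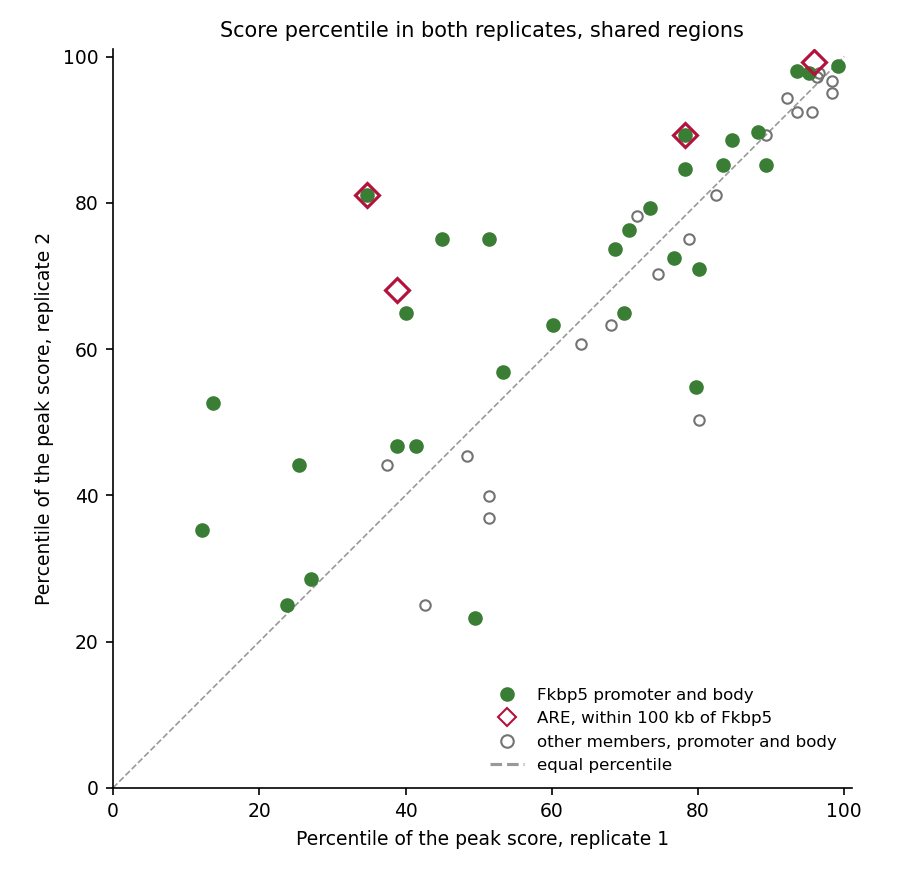
Percentile of the authors' score within the list of replicate 1 (horizontal) and replicate 2 (vertical) for shared regions of Fkbp5 (filled, promoters and body), those of the other 6 FKBP genes (open) and the 4 regions with an ARE within 100 kb of Fkbp5 (diamonds). Above the dashed line the percentile is higher in replicate 2, where all 4 diamonds and 23 of the 30 Fkbp5 regions lie.

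Fkbp5 also lay in a neighbourhood dense in open sites. With 80 shared regions in the gene and 100 kb on either side, it ranked at percentile 99.1 of protein-coding genes, whose median was 21. With the stronger 50% of peaks there were 49, and within 50 kb there were 53. Counting only TSSs of protein-coding genes, as for every nearest gene named here, 35 of the 80 were nearest to Fkbp5. Of these 35, 5 lay in the upstream flank, each within 1 kb of a noncoding start. Downstream, 33 regions stretched past Tulp1, Tead3, Rpl10a, a ribosomal protein gene, and Fance, a DNA repair gene, to Ppard, a nuclear receptor gene. The highest there were at the promoters of Fance (147 and 144) and Rpl10a (143 and 138). The 17 upstream regions included the promoter of Lhfpl5 (133 and 124) and a site near Srpk1, an SR protein kinase gene (133 and 116). Between Fkbp5 and Armc12, the exon of the noncoding gene E230001N04Rik held the ARE region of 138 and 142, centred 5674 bp upstream of the first Fkbp5 TSS.

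Fkbp4, on chr6:128429735-128438677, had 3 promoter and 2 intronic shared regions in 8943 bp. Its highest peak lay 14 bp upstream of the TSS in both replicates, and it shares that promoter with Gm10069, an antisense transcript starting 80 bp away in the other direction. The intronic regions scored 86 and 73, and 94 and 80. All 5 regions overlapped the body, as many as or more than in 95.8% of genes of like length. No ARE lay in its promoter or body regions.

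Fkbp1a, on chr2:151542483-151561692, had 4 promoter regions and 1 weak intronic region of 42 and 46. Its highest peak was 28 bp downstream of the TSS in both replicates, with the antisense transcript Gm14167 starting 135 bp away in the other direction. A further region 438 bp into the gene scored 102 and 90. In replicate 1 the body had 8 peaks, and in replicate 2 it had 4.

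Fkbp1b was the one gene of the 7 with a site in its body that outscored its promoter. The intronic region chr12:4837076-4837245, 4430 bp into a gene of 8418 bp, scored 131 in replicate 1 and 117 in replicate 2, against 119 and 108 at the promoter. It holds 1 arm of the ARE and no complete element. Fkbp1b had the fewest shared regions within 100 kb, 22, close to the median of 21 over all genes.

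Fkbp2, the shortest at 2761 bp (chr19:6977741-6980501), was open over much of its length. Hotspots covered 41.4% of it in replicate 1 and 46.6% in replicate 2. The shared region at the first TSS scored 145 in replicate 1 and 132 in replicate 2, and that 450 bp downstream scored 145 and 126. Its 100 kb neighbourhood held 58 shared regions, 4 of them nearest to Stip1, which encodes the HSP90 cochaperone HOP.

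Fkbp8, on chr8:70527724-70535328, shares its promoter with Kxd1 on the other strand, whose TSS lies 21 bp downstream of that of Fkbp8-211, so that the 5′ ends overlap. The shared region over both starts scored 127 and 124, and those 367 and 647 bp into Fkbp8 scored 54 and 43, and 54 and 41. With 64 shared regions within 100 kb, Fkbp8 ranked at percentile 96.5. Among protein-coding genes, Ssbp4 had the nearest TSS to 11 of the 64 and Ell to 10.

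Fkbp10, whose protein FKBP65 is a procollagen chaperone of the endoplasmic reticulum, had no shared region centred within 500 bp of its TSS. Its shared promoter regions were centred 906 and 586 bp upstream of its TSS (100415697) and were nearest to P3h4, another gene of collagen modification, whose TSS lies 861 bp away on the other strand. The higher one, of 137 and 117, was centred 45 bp from the P3h4 TSS, within its exon. At the Fkbp10 TSS, replicate 1 had a peak of 28 centred 14 bp downstream and replicate 2 a peak of 40 centred 246 bp upstream. The body had 1 peak in replicate 1, none in replicate 2 and no shared region. With a promoter window of 500 bp, its mean percentile was 4.48 in place of 44.2.

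AREs also lay in shared regions near 4 of the other genes. The highest score was near Fkbp1a, in an intron of Snph 63018 bp downstream of the TSS, at 142 and 126. The region downstream of Fkbp4, nearest to Nrip2, scored 33 and 65, and that at Kcnk4, downstream of Fkbp2, scored 35 and 55. Of the 4 near Fkbp10, the one nearest to Klhl11 scored 45 and 74 and the others ranged from 35 to 69. No shared region with an ARE lay within 100 kb of Fkbp1b or Fkbp8.

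The promoters of the FKBP genes were rich in G, C and CpG. The RefSeq table held 8 entries for 6 of the 7 genes. In the 250 bases before the start, G and C made up between 58.4% (Fkbp1a) and 72.8% (an Fkbp2 start), where the median over 32851 promoters was 52.4%. CpG was highest at Fkbp4, at 1.10 times what its base composition gives, at or above 97.9% of promoters. In the other entries it ran from 0.54 (an Fkbp2 start) to 0.85 (Fkbp1a), at or above 62.4% and 84.5% of promoters. The median over all promoters was 0.37. GGGCGG was found at Fkbp5, Fkbp4, Fkbp8, Fkbp1b and 2 of 3 Fkbp2 starts, against 32.7% of all promoters. CCAAT was found at Fkbp5, Fkbp4, Fkbp8 and 2 of 3 Fkbp2 starts, against 33.8%. None of the 8 held an ARE, found in 1.56% of all promoters.

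Most genes of related pathways also had open promoters, as did 59.5% of all protein-coding genes. Of 10 other FKBP and FKBP-like genes 9 had a shared promoter region (Wilson interval 59.6% to 98.2%), the exception being Fkbp6, known from the testis. Ranked by the lower of both percentiles, the highest were Fkbp3 (150 and 144), Fkbp15 (147 and 137) and Fkbpl (146 and 137).

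Of 19 genes of the HSP90 steroid receptor complex 16 had one (Wilson interval 62.4% to 94.5%). The highest were Hspa4 (149 and 145), Dnajb1 (150 and 144), Stub1 (150 and 144) and Hspa8 (150 and 142), which encode chaperones and a ubiquitin ligase that acts with them. Among those without one were the mineralocorticoid receptor gene Nr3c2 and the progesterone receptor gene Pgr. Nr3c1, the glucocorticoid receptor gene, which was picked after its values were seen, scored 141 and 137.

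Of 18 partners of FKBP12-type proteins and FKBP8, 14 had a shared promoter region. The Wilson interval, 54.8% to 91.0%, includes the 59.5% of all protein-coding genes. The highest were Ppp3r1 (149 and 145), a calcineurin subunit gene, Tgfbr1 (147 and 143), a TGF-beta receptor gene, Bcl2l1 (146 and 140) and Mtor (149 and 139), the gene of the rapamycin target. Among those without one were the channel genes Ryr3, Trpc1 and Trpc6. Over open genes, the median of the lower of both percentiles was 58.1 for the 7 FKBP genes, against 46.7 for all protein-coding genes. It was 49.985 for the other FKBP genes, 66.0 for the HSP90 complex and 52.8 for the partners.

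The genes most like Fkbp5 were Kcnab2, Nup93, Lrba, Rbfox2 and Limk2, the 5 closest of all protein-coding genes over 4 percentiles (promoter score in each replicate, shared regions in the body, shared regions within 100 kb). Kcnab2, a potassium channel subunit gene, was the closest at a distance of 1.41 percentile points, with promoter scores of 147 and 140, 23 regions in the body and 69 within 100 kb. Nup93, a nuclear pore gene, was 2.42 points away and Limk2, a kinase gene, 4.09.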

How the data were processed

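DNase-seq peak and hotspot lists of 2 biological replicates of 1 group were used. Per the listing deposited with each library, each replicate had lists of its own, made from its filtered mm10 alignment. The aligner, the caller and its threshold are not stated in any source used here. The score deposited by the authors for each peak is a whole number without a stated unit. The −log10 q-value deposited by the authors for each hotspot reaches 100 at most. Of 189930 and 171017 deposited peaks in replicates 1 and 2, 189648 and 170745 distinct peaks on the 21 main chromosomes were kept, with 158286 and 142225 hotspots.

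Coordinates are 1-based, on mm10 (GRCm38). Gene models were those of GENCODE M21, and promoter sequences those of RefSeq. The gene nearest to a region was judged from the TSSs of protein-coding genes only, so a noncoding start can lie nearer. Peaks of the 2 replicates that shared 1 bp or more were joined into shared regions. The central 150 bp of each region was searched for motifs on either strand, allowing 2 mismatches for ARE, CTCF and RFX, 1 for NFI and NRF1 and none otherwise. With 1 group there was no test of conditions. Counts stand beside those of all genes or regions, with Wilson intervals (95%) that cover only counting error. The steps were tested on simulated data. The named genes are the 7 FKBP genes, the genes nearest to regions around them, the 5 genes most like Fkbp5, and in each other list those without a shared promoter region and the 4 highest, except that some genes of these lists are not reported here. The genes, lists and motifs were chosen with earlier results of these data known. Alternatives left out a replicate, the weaker peaks or short overlaps, used hotspots, or changed windows and mismatches. Calculations used Python 3.11.15, numpy 2.4.6, pandas 2.3.3, scipy 1.17.1 and pysam 0.24.0.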

Additional observations from a re-analysis of the deposited data

How the results depend on the processing

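All 7 FKBP genes had a promoter region under each of the 7 alternatives tried. For Fkbp10, the window of 500 bp touched only the edge of the region centred 586 bp upstream, which was nearest to P3h4. The share of all protein-coding genes was 59.5%, ranging from 60.8% to 61.9% with 1 replicate left out, and was 55.5% with the stronger 50% of peaks, 57.8% with a promoter window of 500 bp and 63.4% with one of 2.5 kb. With the stronger 50% of peaks, 16 of the 27 regions in the Fkbp5 body and 49 of the 80 within 100 kb were found, and within 50 kb there were 53. With 1 replicate left out these counts ranged from 30 to 33 and from 96 to 103. Regions with an ARE within 100 kb of Fkbp5 numbered 4, 2 with the stronger 50% of peaks and 1 with up to 1 mismatch, and ranged from 4 to 7 with 1 replicate left out, the 7 being replicate 2 alone. For Fkbp10 the mean promoter percentile of both replicates was 44.2, and 4.48 with a window of 500 bp. For Fkbp1b it was 27.9, and 88.7 with a window of 2.5 kb, which takes in the region at the Wdcp TSS. Shared regions over the body of Fkbp8 numbered 3, 5 with either replicate left out, and 1 with the stronger 50% of peaks or with hotspots in place of peaks. With hotspots, those of Fkbp4 numbered 3 in place of 5, those of Fkbp1a 2 in place of 4 and those of Fkbp10 1 in place of 0. With replicate 2 left out, Fkbp1a had 8 and Fkbp10 had 1. Ranked among all peaks, in place of genes with a promoter peak, the promoter scores of the 7 genes had percentiles from 89.3 to 98.9. Of 51 alternatives for single genes 33 stayed within the spread between replicates or within 1.5 times the count. Of 31 alternatives for the other results, 11 went beyond these limits. No paired analysis was possible because there is only 1 group. The unknown depth and the unstated score limit what a missing peak or a difference in score can show.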
